A study of Mus musculus with 8 samples.

Results

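Glycolysis is the pathway that turns glucose into pyruvate and lactate, and it is the only source of ATP in a mature red cell, which has lost its mitochondria. The glycolysis genes described here are Pklr, which encodes the pyruvate kinase of liver and red cells, together with Bpgm, Hk1, Hk2, Pfkl, Aldoa, Tpi1, Pgk1, Eno1 and Ldha. They were chosen by name and by no rule on a measured value, though with earlier results of these data known. Each gene is matched by its symbol in both tables of nascent RNA, and each binding site is taken where the table of sites gives one of these genes as its closest transcription start site (TSS). All 10 genes were among the 11364 listed genes, and 10 of the 5551 sites belonged to them. At least 1 site belonged to 6 of the genes, beside 26.6% of all listed genes.

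KLF1 is a zinc finger transcription factor of red cell precursors that binds G-rich sequences (their other strand is known as the CACCC box) and activates many genes of the maturing red cell. In humans, replacement of a glutamate by a lysine in the second zinc finger of KLF1 causes a dominant congenital dyserythropoietic anemia (CDA type IV), and E339K is the same change in the mouse protein. The study asked which sites the mutant protein occupies and which genes respond to it. Inherited loss of pyruvate kinase from red cells is a classic cause of hemolysis, and the other enzymes act in the same chain of reactions. Bpgm makes 2,3-bisphosphoglycerate, the small molecule that lowers the affinity of hemoglobin for oxygen.

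The series holds 8 mouse libraries. K1 cells, an immortalised erythroid line without KLF1, gave 3 libraries of newly made RNA, of which 2 were labelled as treated with 4-hydroxytamoxifen (4-OHT, 200 nM) and 1 as treated with ethanol. K1-CDA-ER cells, named K1-E339K-ER here, are K1 cells with a retroviral KLF1-E339K joined to a part of the estrogen receptor that carries it into the nucleus once 4-OHT is added. They gave 3 libraries of newly made RNA from 3 clones (1B, 2A and 2B), all with 200 nM 4-OHT. Newly made RNA was tagged by 4-thiouridine (4sU), for which the labels give 500 µM for 30 min. The study's methods state a longer labelling time and a higher concentration, so the period that the nascent RNA covers is uncertain. Clone 2A also gave 1 ChIP-seq library, after 3 h of 4-OHT and with an antibody to the estrogen receptor part, and 1 library of input DNA. That ChIP library was made from 3 pooled replicates, so it has no replicate error, and it represents 1 clone.

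All of these cells lack endogenous KLF1, and the wild type KLF1-ER libraries (K1-ER cells, made in the same way with wild type KLF1) set beside them come from earlier work. The tables hold 1 level per gene, a mean over all libraries of the fit, and 1 concentration per site and protein, for which the mutant has the 1 pooled ChIP library. The values below therefore have no error between replicates, their sequencing depth is unknown, and no difference between them was tested. The differences in RNA level between cell lines, which the authors fitted themselves, were not used. Among the 12 erythroid markers examined, all were listed, from 3.79 log2 CPM (Hba-a1) to 9.79 log2 CPM (Gata1), while 2 of 4 megakaryocyte, 2 of 4 myeloid, 0 of 3 lymphoid, 0 of 3 hepatocyte and 1 of 3 endothelial or stromal markers were listed. Klf1 itself had a mean level of 6.84 log2 CPM, to which the fusion genes may add reads, and with no value per library it could not serve as a check of the labels. The listed markers of the other cell types reached at most 5.30 log2 CPM (Itga2b, a megakaryocyte integrin).

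The sequences at the binding sites are shown first. In the study, the wild type and mutant proteins differed in the base preferred at position 5 of a motif of 9 bases. The form with a pyrimidine there is called the pyrimidine motif and is spelled NGGGCGGGG, NGGGCGTGG, NGGGTGGGG or NGGGTGTGG, while the form with a purine is called the purine motif and is spelled NGGGAGGGG, NGGGAGTGG, NGGGGGGGG or NGGGGGTGG. Both strands were searched, and in a run of G several overlapping matches of 1 motif, or of both, can occur. The bases below are the mm9 forward strand within 50 bp of the midpoint of each site, with exact matches to either motif in capitals. The 6 sites with a match are these.

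Hk1 site 2, chr10:61795533-61795633: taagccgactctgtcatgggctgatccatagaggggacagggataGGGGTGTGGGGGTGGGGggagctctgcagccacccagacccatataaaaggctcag
Pgk1 site 1, chrX:103382198-103382298: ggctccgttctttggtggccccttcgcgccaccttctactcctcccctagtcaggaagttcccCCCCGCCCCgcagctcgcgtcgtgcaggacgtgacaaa
Eno1 site 1, chr4:149606337-149606437: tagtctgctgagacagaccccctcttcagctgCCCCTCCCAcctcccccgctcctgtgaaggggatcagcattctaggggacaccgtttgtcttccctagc
Ldha site 1, chr7:54088647-54088747: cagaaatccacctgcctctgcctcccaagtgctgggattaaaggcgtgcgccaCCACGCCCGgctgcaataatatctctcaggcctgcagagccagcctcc
Ldha site 2, chr7:54092681-54092781: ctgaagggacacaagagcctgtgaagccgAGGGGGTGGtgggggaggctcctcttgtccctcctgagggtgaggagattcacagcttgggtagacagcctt
Ldha site 3, chr7:54100673-54100773: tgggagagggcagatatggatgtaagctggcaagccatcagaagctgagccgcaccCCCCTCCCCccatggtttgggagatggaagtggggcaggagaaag

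The sites of Pklr had no exact match to either motif in this window. Their capitals mark, on either strand, 4 words of the kind recognised by the GATA factors of red cell precursors: the word AGATAA, its form with a final G (AGATAG), the word starting with T (TGATAA) and the form with both changes (TGATAG). Such words occurred in the windows of 20.6% of all sites, and the search for them was added after the sites had been seen. Bases in an annotated exon were left out, so the stretch of Pklr site 2 ends just before the first annotated start.

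Pklr site 1, chr3:88936371-88936471: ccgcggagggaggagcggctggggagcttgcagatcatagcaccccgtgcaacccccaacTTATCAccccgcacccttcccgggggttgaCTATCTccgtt
Pklr site 2, chr3:88940016-88940063: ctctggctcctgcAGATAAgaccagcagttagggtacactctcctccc

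The hexokinases and the phosphofructokinase carry out the early, ATP-consuming steps. Hk1 (Entrez 15275, chr10:61731603-61842656, minus strand), which encodes the main hexokinase of red cells, had a mean nascent RNA level of 7.21 log2 CPM (voom's depth-scaled log count). Hk2 (Entrez 15277, chr6:82675019-82724448, minus strand), the inducible hexokinase, had a level of 6.42 log2 CPM. Pfkl (Entrez 18641, chr10:77449692-77472828, minus strand), the liver-type phosphofructokinase subunit, stood at 5.87 log2 CPM. These 3 are among the longer genes of the set, and newly made RNA includes introns, so genes were compared per kb of the length in the tables, called the gene span here. That length was within 10% of the annotated span, introns included, for 9 of the 10 genes and for 84.9% of the 9961 genes with a single annotated span. The exception was Ldha, with a length of 9824 bp in the tables and an annotated span of 14153 bp. On that scale Hk1 stood at 0.42, Hk2 at 0.79 and Pfkl at 1.35 log2 CPM per kb, beside a median of 0.82 for all genes.

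Among the enzymes of the middle of the pathway, Aldoa (Entrez 11674, chr7:133938748-133944265, minus strand), the aldolase of muscle and red cells, had 8.43 log2 CPM, rank 382 of all genes. Tpi1 (Entrez 21991, chr6:124760604-124764314, minus strand), triosephosphate isomerase, had 6.52 log2 CPM. Pgk1 (Entrez 18655, chrX:103382439-103399038, plus strand) encodes phosphoglycerate kinase and had 6.95 log2 CPM. Per kb of gene span, Aldoa was the highest of the 10 genes at 6.05 log2 CPM per kb, while Tpi1 had 4.63 and Pgk1 had 2.90.

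The last steps held both the highest and the lowest level in log2 CPM. Ldha (Entrez 16828, chr7:54096845-54110997, plus strand), lactate dehydrogenase A, reached 8.93 log2 CPM, and 98.6% of listed genes were at or below it. Eno1 (Entrez 13806, chr4:149610830-149622988, plus strand), the widely expressed enolase, reached 8.20 log2 CPM. Per kb of gene span these 2 genes had 5.63 and 4.65 log2 CPM per kb.

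Pklr (Entrez 18770, chr3:88940064-88950706, plus strand) had a mean level of 1.54 log2 CPM, with only 11.8% of listed genes at or below it. Its level was -1.84 log2 CPM per kb of gene span and -0.15 log2 CPM per kb of annotated exon, the lowest of the 10 genes on each scale. The level is a mean over cells with and without KLF1, so it does not tell in which of them Pklr was low. Bpgm (Entrez 12183, chr6:34426207-34455613, plus strand), the other gene of the set with a largely red cell role, had 6.52 log2 CPM and 1.65 log2 CPM per kb of span.

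Across the set, the median level was 6.74 log2 CPM (range 1.54 to 8.93), beside 5.27 for all genes, whose quartiles were 3.39 and 6.63. On this scale 9 of the 10 genes were above the median of all genes and 5 were above the upper quartile. Per kb of gene span the median was 2.28, beside 0.82 for all genes, and 7 of the 10 were above it, with Hk1, Hk2 and Pklr below. Per kb of annotated exon the median was 5.03, beside 3.53 for the 10043 genes with an exon length, and 9 were above. Neighbouring genes in these orders cannot be separated, since no spread between libraries is known. The rule by which reads were counted was not given in the sources used here, and genes with processed pseudogenes or close paralogs may share reads with them.

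**Figure D1:**
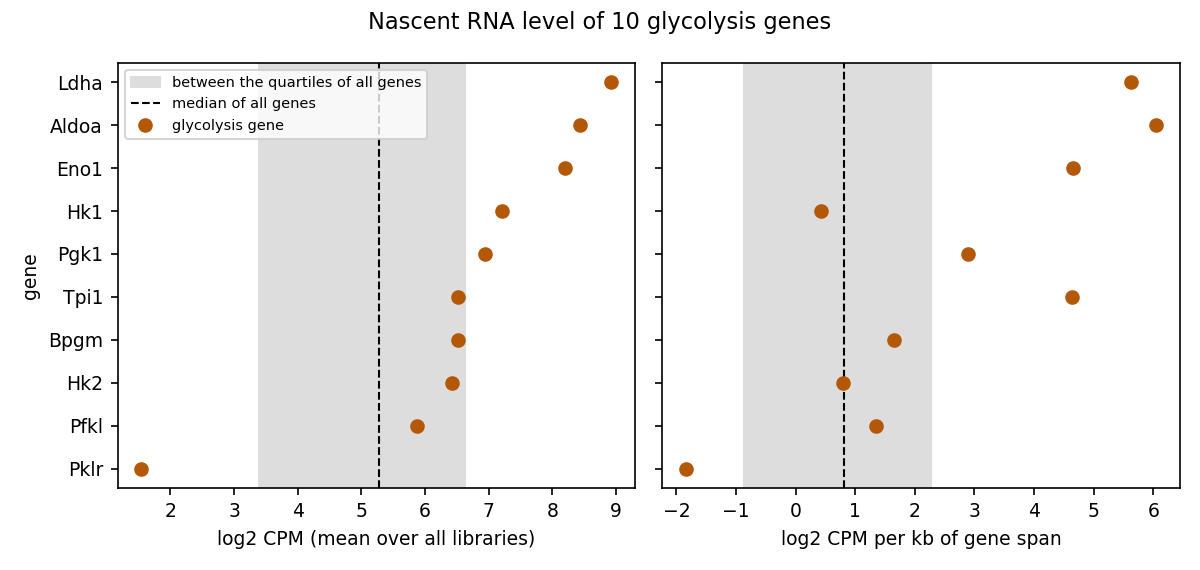
Each point is the mean nascent RNA level of 1 of the 10 glycolysis genes, in log2 CPM (left) and in log2 CPM per kb of gene span (right); the dashed line is the median and the gray band the range between the quartiles of all 11364 genes. Pklr, at 1.54 log2 CPM, lies apart from the other 9 genes, which lie between 5.87 and 8.93, while Hk1 and Hk2 fall just below the median once length is taken into account.

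Other genes of the pathway, on a list of 27 that includes glucose transporters, further isoenzymes, regulators and lactate exporters, were listed for 16 genes. Their 17 levels (Gpi1 has 2 rows) had a median of 7.07 log2 CPM and ran from -0.56 for Pfkp, the platelet-type phosphofructokinase, to 9.90 for Pkm. The next lowest were the regulator Pfkfb1 at 4.10 and the glucose transporter Slc2a3 at 5.46 log2 CPM. Pkm encodes the widely expressed pyruvate kinase and stood at 5.37 log2 CPM per kb of span, against -1.84 for Pklr. The monocarboxylate transporter Slc16a1, which exports lactate, had 9.25 log2 CPM, and Gapdh had 8.58 log2 CPM.

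Binding sites were described by a concentration, which is the normalized read count of the site averaged over the libraries of 1 protein and put on a log2 scale. The sites form a merged set in which a site was called for at least 1 of the proteins, so few sites have a low concentration for both. Concentrations of KLF1-ER had a lowest value of -0.09, which 1424 sites (25.7%) shared. Where a site stood at that value its concentrations are given with no fold. Folds at sites with a KLF1-ER concentration little above that value rest on few reads. The KLF1-ER libraries come from earlier work, so a difference between the proteins cannot be told apart from one between experiments.

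Pklr had 2 sites. Pklr site 1 (chr3:88936207-88936636), 3642.5 bp before the start and outside any annotated gene, had a concentration of 6.50 for KLF1-ER and 8.19 for KLF1-E339K-ER. It ranked 232 of 5551 for KLF1-ER and 18 of 5551 for KLF1-E339K-ER, and was the most occupied of the 10 sites by both proteins. The mutant concentration was 1.69 higher on the log2 scale, or 3.23-fold.

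Pklr site 2 (chr3:88939849-88940284) lay over the start of the gene, with its midpoint 2.5 bp after it, in an untranslated exon. Pklr is known for 2 alternative first exons, the upstream one used in red cells and the downstream one in liver. The site held 2 of the annotated starts and ended 210 bp before the next start downstream. Its concentration was 4.86 for KLF1-ER and 4.49 for KLF1-E339K-ER, a difference of -0.37 on the log2 scale, mutant minus wild type (1.29-fold). So at Pklr, neither site differed 4-fold between the proteins.

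Hk1 had a site at an alternative start and another farther into the gene. Hk1 site 1 (chr10:61802846-61803471), centred 10.5 bp after the stated start in an untranslated exon, had a concentration of 5.20 for KLF1-ER and 5.71 for KLF1-E339K-ER (1.42-fold). It held 2 annotated starts, which lie inside the gene span given above, and other annotated Hk1 transcripts start farther upstream. With 626 bp it was the widest of the 10 sites, and the start of 2210417K05Rik lay 154.5 bp from its midpoint. Hk1 site 2 (chr10:61795430-61795737), in an intron 7585.5 bp after the stated start, had 3.00 for KLF1-ER and 5.99 for KLF1-E339K-ER, 7.94-fold higher for the mutant. The 2 sites thus had similar mutant concentrations, and differed more in those of KLF1-ER.

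Aldoa and Pgk1 each had 1 site next to the start. Aldoa site 1 (chr7:133942619-133942983) was centred 33 bp before the start, within an intron of a longer Aldoa transcript, and held 3 annotated starts. Its concentration was 2.61 for KLF1-ER and 5.56 for KLF1-E339K-ER, 7.73-fold higher for the mutant. Pgk1 site 1 (chrX:103382088-103382408), 215 bp before the stated start, had 1.91 for KLF1-ER and 5.94 for KLF1-E339K-ER, 16.3-fold higher for the mutant.

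Eno1 site 1 (chr4:149606226-149606548) lay 4919 bp before the stated start and outside any annotated gene. It stood at the lowest value of -0.09 for KLF1-ER and at 4.58 for KLF1-E339K-ER. The start of another annotated gene, Gm13094, was nearer in the annotation used here, at 4243 bp.

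Ldha had 3 sites, which did not all favour the same protein. Ldha site 1 (chr7:54088543-54088852), 12476.5 bp before the stated start, had 5.48 for KLF1-ER and 1.88 for KLF1-E339K-ER, 12.1-fold higher for the wild type. It lay 863.5 bp from the start of Gm5331. Ldha site 2 (chr7:54092568-54092894), 8443 bp before the stated start, stood at -0.09 for KLF1-ER and at 4.37 for KLF1-E339K-ER. Ldha site 3 (chr7:54100564-54100883), 450.5 bp before the stated start and in an intron of a longer Ldha transcript, stood at -0.09 for KLF1-ER and at 4.65 for KLF1-E339K-ER.

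Bpgm, Hk2, Pfkl and Tpi1 were the closest TSS of no site. With all sites within 10 kb counted, 6 of the 10 glycolysis genes were a closest TSS, beside 21.3% of the 11364 listed genes. Of the 10 sites, 5 lay within 1 kb of the stated start and 9 within 10 kb, while over all sites 39.5% and 67.6% did. The stated start lay within 5 bp of an annotated start of the release used here at 67.1% of all sites, so distances depend on the annotation. Ldha sites 1 and 2 lay 8147.5 and 4114 bp from the nearest annotated Ldha start, and Hk1 site 2 lay 5068.5 bp from the nearest annotated Hk1 start. By annotated starts, Ldha site 1 also lay within 10 kb.

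**Figure D2:**
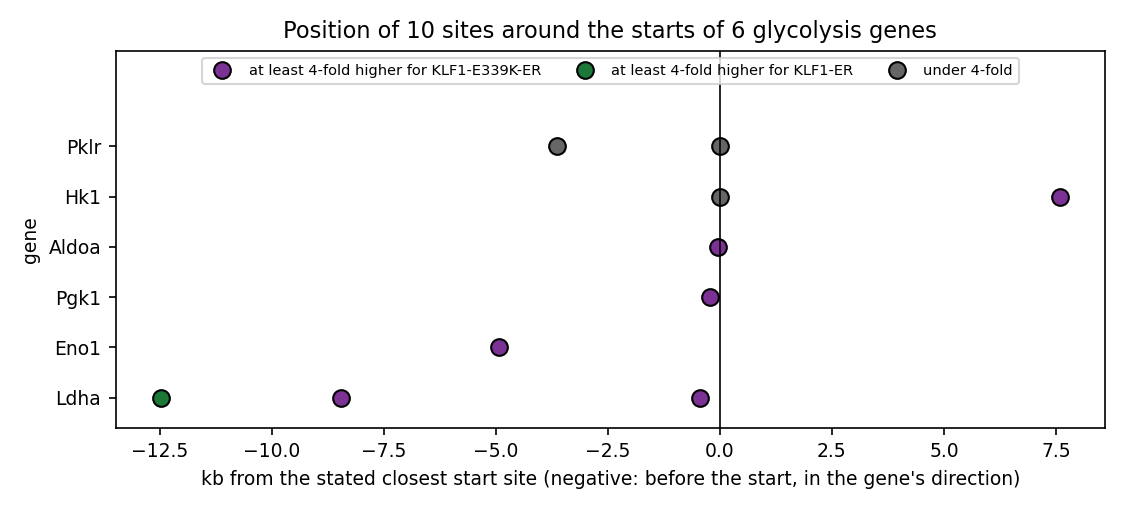
Each circle is 1 of the 10 sites, placed by the distance in kb of its midpoint from the stated closest start (negative values lie before the start in the direction of the gene) and coloured by the difference between the proteins. The sites at the stated starts of Pklr and Hk1 are gray (under 4-fold), those at the stated starts of Aldoa, Pgk1 and Ldha are purple (at least 4-fold higher for KLF1-E339K-ER), and the green site farthest from Ldha is the only 1 of the 10 that was at least 4-fold higher for KLF1-ER.

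Of the 10 sites, 6 had a concentration at least 4-fold higher for KLF1-E339K-ER, beside 55.3% of all sites, and 1 was at least 4-fold higher for KLF1-ER, beside 23.3% of all sites. The first count, 60.0% of the 10 sites, was near the share of all sites. Of the 6 sites whose larger concentration was at least 5, 3 were at least 4-fold higher for KLF1-E339K-ER, beside 52.9% of all such sites. The remaining 3 of the 10 sites, both of Pklr and the one at the stated start of Hk1, differed by less than 4-fold, as did 21.4% of all sites. These same 3 sites were the ones with a concentration of 4 or more for both proteins, beside 15.9% of all sites. Both groupings use the same concentrations, so this match is not separate evidence. The median concentration was 2.80 for KLF1-ER and 5.11 for KLF1-E339K-ER over the 10 sites, and 2.82 and 4.86 over all sites.

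**Figure D3:**
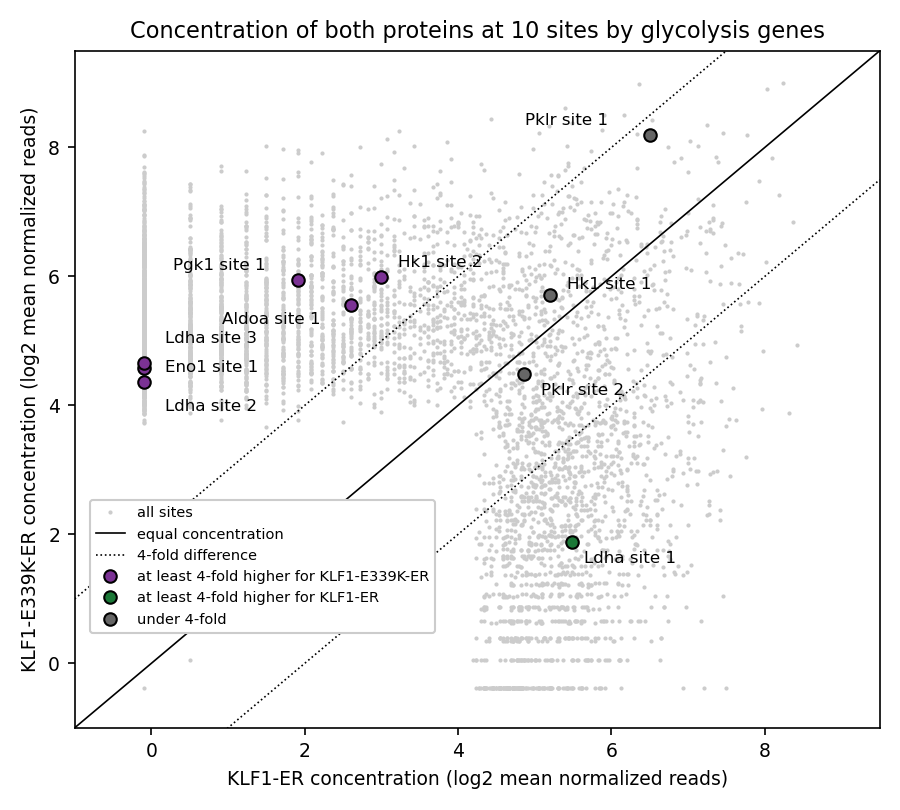
Concentration (mean normalized reads, log2 scale) of KLF1-ER (horizontal) and KLF1-E339K-ER (vertical) at the 5551 sites in light gray and at the 10 sites of glycolysis genes in colour; the solid line marks equal concentrations and the dotted lines a 4-fold difference. Pklr site 1 lies near the upper right corner at 6.50 and 8.19, and Eno1 site 1 and Ldha sites 2 and 3 lie at the left edge, at the lowest KLF1-ER value of -0.09.

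The motifs shown above were then set beside these concentrations. The study derived both motifs from peaks of these proteins, so matches at the sites are not independent of the binding data. Within 50 bp of the midpoint, 4 of the 10 sites held the purine motif, beside 35.5% of all sites, and 3 held the pyrimidine motif, beside 35.3% of all sites. Both shares were close to those of all sites. The words of the purine motif were TGGGGGTGG at Hk1 site 2, TGGGAGGGG at Eno1 site 1, AGGGGGTGG at Ldha site 2 and GGGGAGGGG at Ldha site 3. Position 5 was G at Hk1 site 2 and Ldha site 2, and A at Eno1 site 1 and Ldha site 3. In the study's binding assays with purified zinc fingers, A at position 5 was bound weakly by both proteins, with roughly equal affinity. All 4 sites with the purine motif were at least 4-fold higher for KLF1-E339K-ER, and 3 of them were those at the lowest KLF1-ER value. Over all sites, 1420 of the 1973 with the purine motif were at least 4-fold higher for KLF1-E339K-ER.

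The pyrimidine motif was found as CGGGCGTGG at Ldha site 1, the site 12.1-fold higher for KLF1-ER, as GGGGCGGGG at Pgk1 site 1, and as GGGGTGTGG and GGGGTGGGG at Hk1 site 2, where the purine word lies across both. Pgk1 site 1 thus held the pyrimidine motif and no purine motif in its window, with a concentration 16.3-fold higher for the mutant. Of the 6 sites at least 4-fold higher for KLF1-E339K-ER, 4 held the purine motif and 2 the pyrimidine motif, and among all such sites 46.3% and 21.8% did.

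Neither motif occurred in the window of 4 sites, those of Pklr, Hk1 site 1 and Aldoa site 1, beside 42.2% of all sites. Over the whole site, Hk1 site 1 held 6 matches of the pyrimidine motif and 1 of the purine motif. Aldoa site 1 held 8 overlapping purine matches in 2 runs of G between 127 and 145 bp from its midpoint. Pklr site 2 held 1 purine word, TGGGGGTGG, at 199.5 bp from its midpoint, near its edge. Pklr site 1, the site with the highest concentration of both proteins among the 10, held no exact match over its whole length, as was the case for 18.1% of all sites.

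In the window of Pklr site 1 the nearest words, AGGGAGGAG for the purine and CGGCTGGGG for the pyrimidine motif, each had 1 mismatch. A word with at most 1 mismatch to the purine motif was present at 89.7% of all sites and to the pyrimidine motif at 85.1%, so such words tell little about a site. The GATA words occurred 2 times in the window of Pklr site 1 and 1 time in that of Pklr site 2, and in none of the other 8 windows. Thus 2 of the 10 sites (20.0%) held at least 1, near the 20.6% of all sites. A match describes letters only and is not a measured contact, and the search for GATA words and for mismatches was added after the sites had been seen.

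**Figure D4:**
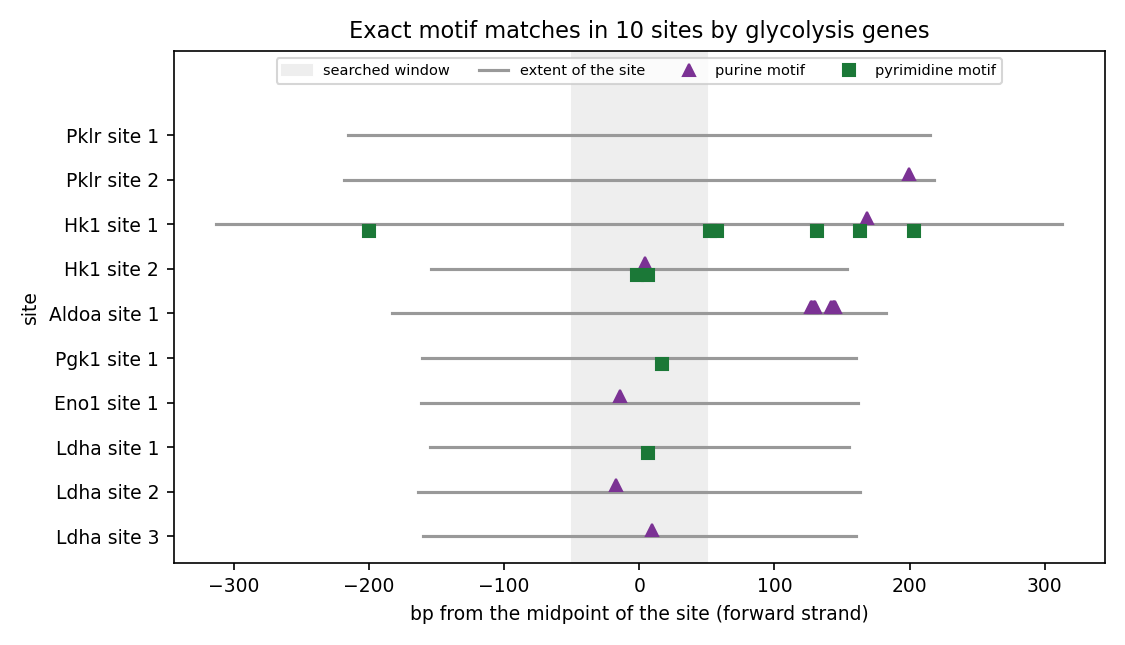
Each row is 1 site of a glycolysis gene, drawn to scale in bp from its midpoint on the forward strand, with exact matches of the purine motif as purple triangles and of the pyrimidine motif as green squares; the gray band is the window of 50 bp on each side. The rows of Eno1 and Ldha have a single match within 17 bp of the midpoint, those of Hk1 site 1, Aldoa and Pklr site 2 have matches only outside the band, and that of Pklr site 1 is empty.

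Promoters of the same genes were searched in RefSeq's promoter sequences, 250 bases before to 50 bases after each start (GRCm38.p6), of which 17 belonged to the 10 genes. The pyrimidine motif was present in 11 of the 17, beside 29.7% of all promoters, and the purine motif in 5 of the 17, beside 22.6% of all promoters. The shares of all promoters cover 32851 RefSeq promoters and are not limited to the 11364 listed genes, to which all 10 members belong. Promoters of Aldoa and of Eno1 overlap, so these are not 17 separate sequences. By gene, 8 had the pyrimidine motif in at least 1 promoter, and Pklr and Hk2 had neither motif. No share over all genes was computed for this count, and genes with several promoters have more chances of a match. It is therefore not to be set against the 29.7% of promoters. Bpgm, Pfkl and Tpi1 each had 1 promoter with a match to the pyrimidine motif and none to the purine motif, and were the closest TSS of no site.

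For the wider list, 8 of the 16 listed genes had 20 sites in all, while 26.6% of all listed genes had a site. Within 10 kb, 6 of the 16 genes had at least 1 site, beside 21.3% of all listed genes. Of the 20 sites, 9 were at least 4-fold higher for KLF1-E339K-ER and 3 for KLF1-ER, beside the 55.3% and 23.3% of all sites given above. The site 161.5 bp before the start of Pkm had 7.16 for KLF1-ER and 4.34 for KLF1-E339K-ER, 7.06-fold higher for the wild type. At Pklr, by comparison, the site over the start had 4.86 and 4.49. The site 1149.5 bp before the start of Eno3, the muscle enolase, had 7.25 and 8.35, and its midpoint lay in an intron of Gm12319. Another Eno3 site, 76 bp before the start, had 5.55 and 6.12. Gapdh, the dehydrogenase of the middle of the pathway, was the closest TSS of 5 sites, which did not all favour the same protein. Gapdh sites 2 and 5 both had 0.50 for KLF1-ER, with 6.18 and 6.39 for KLF1-E339K-ER, and Gapdh site 3, at the start, had 3.72 and 6.50. Gapdh sites 1 and 4 were higher for KLF1-ER, with 5.46 against 3.73 and 5.32 against 4.65. The midpoints of Gapdh sites 4 and 5 lay inside another gene, Iffo1, in an untranslated exon and an intron. Slc16a1 had a site 174.5 bp before its start with 3.50 for KLF1-ER and 6.58 for KLF1-E339K-ER (8.46-fold). Its 2 other sites, 33116.5 and 35154 bp after the start, were higher for KLF1-ER, with 5.12 against 4.32 and 5.21 against 1.85 (10.3-fold). Slc2a1, a widely expressed glucose transporter, had a site 3716 bp before its start with 2.08 and 6.03 (15.5-fold higher for the mutant) and another 2970.5 bp before it with 4.34 and 5.71, and its site 57654 bp before the start had 2.72 and 6.26 (11.6-fold). The lactate exporter Slc16a3 had a site 1973 bp after its stated start with 5.02 and 5.66 (1.56-fold). Farther on, at 9863.5 and 10608.5 bp, it had 2 sites higher for KLF1-E339K-ER, with -0.09 (the lowest value) against 4.20 and 0.91 against 4.89 (15.8-fold for the latter). The midpoint of the site at 9863.5 bp lay in an untranslated exon annotated to both Csnk1d and Slc16a3.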

How the data were processed

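Members and gene lists were chosen with earlier results of these data known. Per the study's methods, Ion Proton reads were aligned to the mouse genome mm9 by TMAP, with Tophat2 (2.0.10) used as well for 4sU-RNA-seq. The authors then fitted the RNA with limma-voom, called peaks with MACS2 and GEM, and counted them with DiffBind. Counting rule, gene annotation and other versions were not given in the sources used here. The deposited mean expression is a log2 CPM over all libraries of the authors' fit, K1-ER libraries of earlier work included, and the deposited concentrations are log2 mean normalized read counts. Lengths, positions and distances are in bp. The tables also hold the authors' own comparisons (log2 fold changes, t statistics, p-values and FDR), which were not used.

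Both gene tables were joined on Entrez identifier, length and mean expression. A difference is the mutant minus the wild type concentration. Sequence and gene positions came from NCBIM37 (mm9) and GENCODE M1; promoter sequences came from RefSeq (GRCm38.p6) and their coordinates were not combined with mm9. The rule for named genes took all 10 members, their sites, and from the wider list each gene with a site within 10 kb and the 3 highest and 3 lowest levels. Motif search was tested on simulated data, where 500 of 500 planted motifs were found. Analyses used Python 3.11.15, pandas 2.3.3, numpy 2.4.6 and matplotlib 3.10.9. No test was run, because no value per library was available in the tables used. Alternatives were other lengths, distances, folds, search windows and 1 mismatch.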

Additional observations from a re-analysis of the deposited data

How the results depend on the processing

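The median level of the 10 genes, 6.74 log2 CPM, became 2.28 per kb of gene span, 5.03 per kb of annotated exon (chosen after seeing the data), and 7.07 for the wider list, each on its own scale or set. The count of 6 sites at least 4-fold higher for KLF1-E339K-ER fell to 3 when the larger concentration had to be at least 5 (3 of 6 such sites, 52.9% of all such sites), and the purine motif was held by 7 sites instead of 4 when the whole site was searched (58.4% of all sites), and by 10 with at most 1 mismatch (89.7% of all sites; pyrimidine motif: 8 instead of 3, beside 85.1% of all sites), an alternative chosen after seeing the data. The purine motif was held by 3 instead of 5 promoters when only the bases before the start were searched. The other alternatives kept the counts within 1.5 times. No paired analysis was possible because the tables hold no values per library, although the labels share replicate numbers, and for the same reason leaving out each library in turn could not be run. Depth is unknown, and the 1 ChIP library limits each mutant concentration to 1 clone. Sites at the lowest KLF1-ER value carry no information on how far below it they lie.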
